A study of Mus musculus with 9 samples.

Results

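The genes described here are 34 interferon-induced and MHC class I genes of mouse embryonic stem cells, out of 52636 genes in the deposited count table. They were listed by name and selected on their counts in these same 9 libraries, among them the lack of Gbp2 counts in 1 line. Their values are therefore a description, and no p-value is given for any of them. The list has no threshold, so no gene lies just outside it. All 34 symbols were matched to an Ensembl gene. The 9 libraries come from 3 lines with 3 libraries each, grown untreated in serum with leukaemia inhibitory factor and sorted for PECAM-positive, PDGFRA-negative cells. The line called Nanog-null here has the title NanogKO (44C6) and the genotype N{delta}. That called Esrrb has the title NanogKO:Esrrb (44J), that called Esrrb+Nanog has the title NanogKO:Esrrb:Nanog (44JN), and both have the genotype N{delta}:cE:iN. All 3 lines, the reference included, thus carry the Nanog knockout, and each group is a single line, so an added gene and the line that carries it cannot be told apart. The labels do not say whether the libraries of a line were separate cultures, so errors describe the spread between these libraries.

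Library totals ran from 21808120 to 32496267 counts. Nanog was at 14.3 to 16.02 CPM (counts scaled to library size) in Nanog-null libraries, 29.7 to 35.1 in Esrrb libraries and 221 to 333 in Esrrb+Nanog libraries. Nanog counts were thus present in the line labelled as its knockout, and Nanog was higher in the Esrrb line (log2 change 1.09 ± 0.14, edgeR adjusted p = 5.92e-05). Which part of the gene is deleted is not given in the sources used here, and the origin of these counts was not tested. Esrrb was at 253 to 303, 692 to 949 and 1056 to 1151 CPM. It was also higher in the Esrrb+Nanog than in the Esrrb line (log2 change 0.46 ± 0.10, edgeR adjusted p = 0.0133). These 2 lines thus differed in both Nanog and Esrrb. The 5 pluripotent cell markers Pou5f1, Sox2, Zfp42, Tdgf1 and Pecam1 were abundant everywhere. They summed to 1958 to 2174 CPM in Nanog-null, 2741 to 2943 in Esrrb and 2603 to 2721 in Esrrb+Nanog libraries, so the lines were not alike. In the Esrrb line 3 of the 5 were called higher (edgeR, adjusted p under 0.05), against 24.2% of all tested genes. Pecam1, the marker used for sorting, was called lower there (log2 change -0.71 ± 0.10).

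Interferons are secreted proteins that bind cell-surface receptors and, through JAK kinases, activate STAT transcription factors. A complex of STAT2 with IRF9 binds the interferon-stimulated response element (ISRE), while STAT pairs bind the gamma-activated site (GAS). The induced genes include antiviral proteins, GTPases that attack intracellular pathogens, and the machinery that cuts proteins into peptides and shows them on MHC class I molecules at the cell surface. Embryonic stem cells are known for low class I expression and a weak response to interferon, and for expressing some of these genes, such as the IFITM family, without interferon.

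Promoter sequence is where these genes are known to resemble each other, so it is shown first. RefSeq promoters (GRCm38.p6, the same assembly as mm10, from 250 bases before to 50 after a start) were found for 29 of the 34 genes, in 34 windows. Iigp1, Nlrc5, Rtp4, Tap2 and Usp18 had no entry. The ISRE core was searched as GAAA, any 2 bases and GAAA again, and the GAS as TTCNNNGAA with N for any base, both on either strand. The ISRE core was in 16 of the 34 windows (47.1%) against 3.44% of all 32851 windows. The GAS was in 8 of 34 (23.5%) against 8.30%. In Bst2 and Ifitm3 a GAS match overlaps an ISRE core match. The half-site of estrogen-related receptors, the family of Esrrb, searched as AAGGTCA, was in 2 of 34 (5.88%), those of Irf9 and Psmb10, against 4.72%. These are letter matches only, with no binding measured. The stretches below run from base -160 to base -11 before the start on the gene's strand, outside every annotated exon, with ISRE core and GAS matches in capitals. The first 6 are genes described below with a match, and Xaf1, which went the other way, has none in this stretch. Other windows did not divide by direction in this manner. H2-K1, H2-D1, Tap1, Tapbp, Psmb9 and Ifitm1, all called lower in the Esrrb line, had no ISRE core or GAS match. Ifitm2, called higher in the Esrrb+Nanog line, and Ifit1, with most counts in the Esrrb line, had an ISRE core.
Isg15 (chr4:156200829-156200978, minus strand): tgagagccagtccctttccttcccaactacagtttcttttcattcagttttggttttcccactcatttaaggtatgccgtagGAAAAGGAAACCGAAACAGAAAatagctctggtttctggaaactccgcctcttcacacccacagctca
Bst2 (chr8:71537483-71537632, minus strand): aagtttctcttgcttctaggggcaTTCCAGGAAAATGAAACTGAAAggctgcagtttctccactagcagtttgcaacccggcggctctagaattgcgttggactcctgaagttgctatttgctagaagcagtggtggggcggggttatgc
Gbp7 (chr3:142530176-142530325, plus strand): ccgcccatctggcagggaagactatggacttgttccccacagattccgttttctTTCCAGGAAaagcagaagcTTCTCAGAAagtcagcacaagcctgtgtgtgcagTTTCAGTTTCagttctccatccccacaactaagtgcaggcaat
Igtp (chr11:58199396-58199545, plus strand): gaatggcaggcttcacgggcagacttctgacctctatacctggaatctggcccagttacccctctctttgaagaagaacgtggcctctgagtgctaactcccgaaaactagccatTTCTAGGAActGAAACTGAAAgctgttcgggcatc
B2m (chr2:122147527-122147676, plus strand): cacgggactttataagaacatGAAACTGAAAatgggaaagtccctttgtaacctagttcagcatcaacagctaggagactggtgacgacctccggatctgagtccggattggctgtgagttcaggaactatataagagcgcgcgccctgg
Irf1 (chr11:53769854-53770003, plus strand): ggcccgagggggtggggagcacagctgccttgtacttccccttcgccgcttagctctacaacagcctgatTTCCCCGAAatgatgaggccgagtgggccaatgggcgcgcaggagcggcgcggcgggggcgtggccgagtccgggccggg
Xaf1 (chr11:72301469-72301618, plus strand): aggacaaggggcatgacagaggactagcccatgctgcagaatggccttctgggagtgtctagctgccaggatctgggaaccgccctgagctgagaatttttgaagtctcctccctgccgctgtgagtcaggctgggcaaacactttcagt

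The first question is how these genes differ where Esrrb is added to cells labelled as Nanog knockout. Most of the 34 genes were lower in the Esrrb line. B2m, H2-K1 and H2-D1, the peptide transporter, the immunoproteasome subunits Psmb8 and Psmb9, the guanylate-binding proteins Gbp2, Gbp3 and Gbp7, Irf1 and Bst2 all stood below the Nanog-null libraries without overlap. Xaf1, an antagonist of an apoptosis inhibitor, was higher, with a log2 change of 2.31. Of the 34 genes, 25 had enough counts to be tested, and 18 of these 25 (72%) were called lower (edgeR, adjusted p under 0.05) against 24.2% of all 16198 tested genes. Xaf1 was the 1 of 25 called higher, against 24.2% of all tested genes. The median log2 change of the 25 was -1.04, and that of all tested genes was 0.01. Gbp2, Gbp3, Gbp7 and Psmb8 passed the low-count filter through the Nanog-null libraries alone, so they had to differ. Without these 4, 14 of 21 were called lower. Because the genes were chosen with these values known, nothing is read from these counts.

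The second comparison asks what differs where Nanog is present on top of Esrrb, and here 18 of the 25 tested genes were not called. Of the others, 3 were called lower (Irf1, Bst2 and Irgm1) against 7.75% of all tested genes, and 4 were called higher (Ifitm1, Ifitm2, Ifitm3 and H2-D1) against 5.43%. The median log2 change was -0.06. Compared directly with Nanog-null cells, the Esrrb+Nanog line had 14 of 25 called lower against 27.2% of all tested genes, and 2 (Ifitm2 and Xaf1) called higher against 27.2%. Without Gbp2, Gbp3, Gbp7 and Psmb8, 10 of 21 were called lower, and nothing is read from these counts either. Any pair of these comparisons shares a line, so they are not independent of each other. RNA was taken from many cells at once, so fewer cells expressing a gene and less RNA per cell cannot be told apart.

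**Figure D1:**
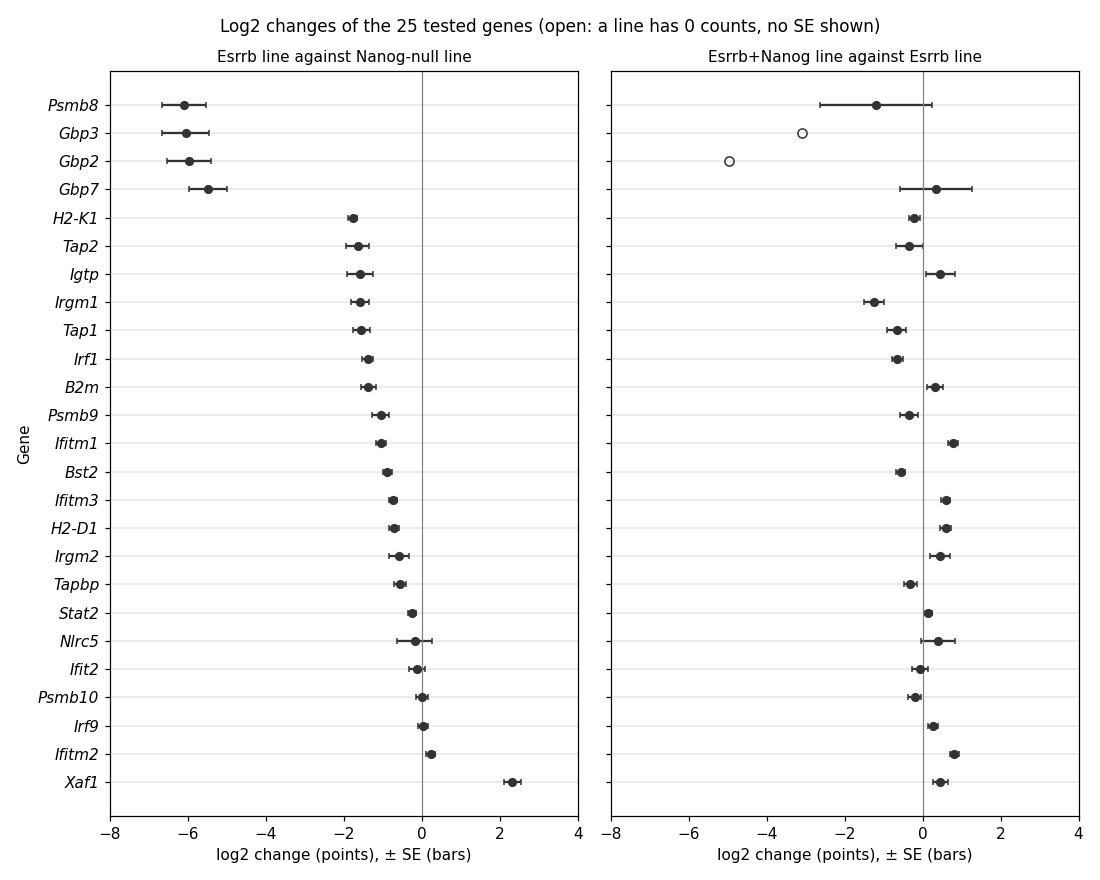
Log2 change (x axis) of each of the 25 tested genes (y axis) in the Esrrb line relative to Nanog-null (left) and in the Esrrb+Nanog line relative to Esrrb (right); points are fitted changes, bars ± SE, and open points mark genes with 0 counts in a line, whose fitted value is no bound. On the left Xaf1 is at 2.31 and Psmb8, Gbp3, Gbp2 and Gbp7 lie between -6.10 and -5.49, while on the right most points lie near 0.

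Compared per kilobase of exon, the 34 genes covered a wide range of levels. In the Nanog-null line 7 genes were at 10 or more CPM per kb. Bst2, which tethers budding virus particles to the cell surface, led with 142 CPM per kb, followed by Ifitm1 at 84.9, Ifitm3 at 47.4, Ifitm2 at 42.8, B2m at 37.2, H2-K1 at 16.3 and Irf1 at 16.2. Another 19 genes were below 1 CPM per kb in that line. The order of the leading genes changed between lines. In the Esrrb+Nanog line Ifitm2 was first at 87.1 CPM per kb and Bst2 was at 52.0. H2-K1 and Irf1 dropped to 4.11 and 3.93 CPM per kb, and 5 genes remained at 10 or more. Nlrc5, Ifit2, Irf9 and Psmb10 had close mean levels in all 3 lines, though Nlrc5 had few counts and Irf9 was slightly higher in the Esrrb+Nanog line.

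**Figure D2:**
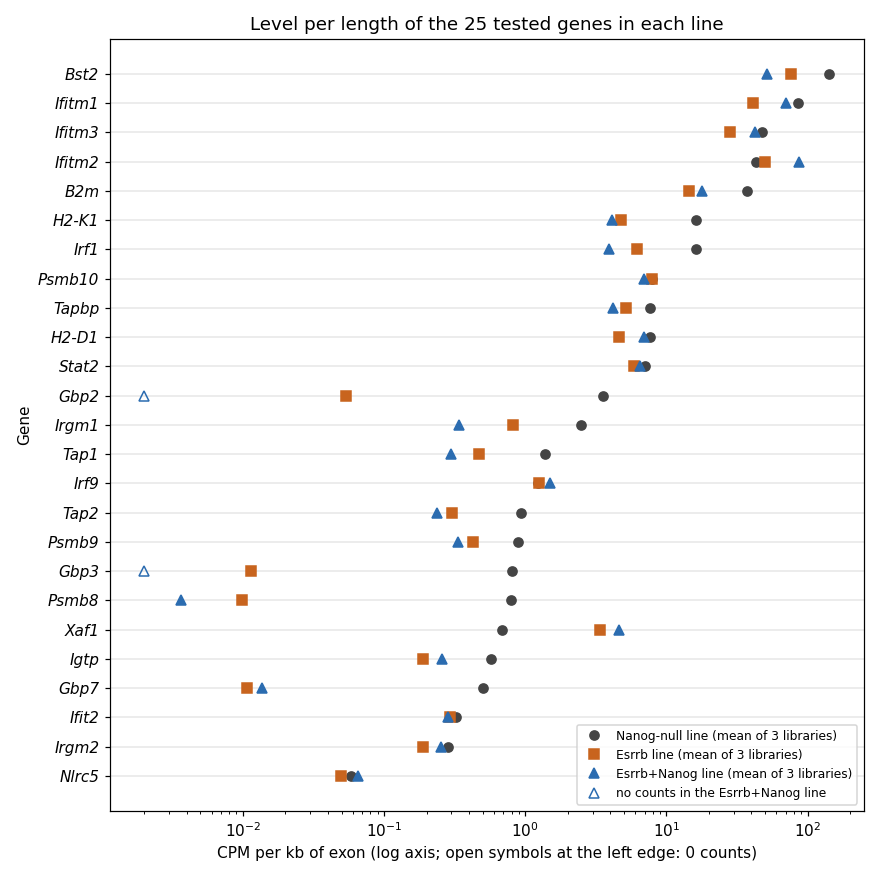
Mean level in CPM per kb of exon (x axis, log scale) of the 25 tested genes (y axis) in the 3 lines, each symbol the mean of 3 libraries; open triangles mark 0 counts in the Esrrb+Nanog line. Bst2 and the Ifitm genes are at the top of the range, Gbp2 and Gbp3 have no counts in the Esrrb+Nanog line, and Xaf1 goes from 0.682 (Nanog-null) to 4.65 (Esrrb+Nanog).

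The class I chains are the presented molecule itself, a heavy chain from H2-K1 or H2-D1 bound to the light chain from B2m. H2-K1 (ENSMUSG00000061232, mm10 chromosome 17, 33996017 to 34000347) was at 40.2, 57.6 and 46.0 CPM in Nanog-null libraries, 15.2, 12.7 and 13.9 in Esrrb libraries and 12.4, 11.4 and 12.5 in Esrrb+Nanog libraries. Every Nanog-null library was above every other library, and the log2 changes relative to Nanog-null were -1.78 ± 0.13 (SE) for the Esrrb line and -1.99 ± 0.13 for the Esrrb+Nanog line. B2m (ENSMUSG00000060802, chromosome 2, 122147686 to 122153083) was at 30.2, 36.6 and 29.1 CPM in Nanog-null libraries, 12.8, 9.98 and 14.2 in Esrrb libraries, and 20.7, 14.0 and 11.5 in Esrrb+Nanog libraries. It was again highest in the Nanog-null line, while the other lines overlapped. Its log2 changes relative to Nanog-null were -1.38 ± 0.20 and -1.06 ± 0.19.

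H2-D1 behaved differently from H2-K1 where Nanog was present. H2-D1 (ENSMUSG00000073411, chromosome 17, 35262730 to 35267499) was at 15.8, 24.03 and 19.04 CPM in Nanog-null libraries, 12.0, 11.6 and 12.1 in Esrrb libraries, and 18.2, 16.6 and 19.0 in Esrrb+Nanog libraries. The Esrrb libraries were below all others, and the remaining lines overlapped. The log2 change was -0.72 ± 0.13 from the Nanog-null to the Esrrb line and 0.59 ± 0.13 from the Esrrb to the Esrrb+Nanog line, and the call of the latter ended without Esrrb replicate 1. H2-T23, a nonclassical class I gene known for presenting signal peptides, had 21, 36 and 17 counts over the 3 libraries of the Nanog-null, Esrrb and Esrrb+Nanog lines and was not tested. Its libraries ran from 0.167 to 0.463, 0.315 to 0.587 and 0.111 to 0.280 CPM. Class I heavy chain genes are close relatives, so how reads divide between them is uncertain.

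Peptides reach class I molecules through the transporter formed by Tap1 and Tap2, held to the empty heavy chain by tapasin (Tapbp). Tap1 (ENSMUSG00000037321, chromosome 17, 34187553 to 34197225) was at 5.42, 10.05 and 7.13 CPM in Nanog-null libraries, 2.56, 2.42 and 2.73 in Esrrb libraries, and 1.96, 1.61 and 1.30 in Esrrb+Nanog libraries. The 3 lines did not overlap, with log2 changes of -1.56 ± 0.22 and then -0.66 ± 0.25, the second of which was not called. Tap2 was at 2.73, 4.58 and 3.35 CPM, then 1.17, 0.976 and 1.27, then 1.33, 0.885 and 0.490. Its Nanog-null libraries were above all others (log2 changes of -1.65 ± 0.30 and -1.98 ± 0.31), and the Esrrb and Esrrb+Nanog libraries overlapped. Tapbp moved less, from 21.6, 35.1 and 26.7 CPM to 19.8, 20.5 and 15.9 in Esrrb libraries and 14.8, 15.8 and 14.7 in Esrrb+Nanog libraries. Its log2 change relative to Nanog-null was -0.57 ± 0.15 in the Esrrb line and -0.88 ± 0.16 in the Esrrb+Nanog line. Tap1 shares exon bases with Psmb9 on the opposite strand and Tapbp with Zbtb22 on the same strand. Reads there could be counted to either gene, and how many were was not measured.

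The immunoproteasome replaces 3 catalytic subunits of the standard proteasome by Psmb8, Psmb9 and Psmb10, and the 3 genes differed widely in response. Psmb8 (ENSMUSG00000024338, chromosome 17, 34197721 to 34201454) was at 2.13, 3.89 and 2.04 CPM in Nanog-null libraries. It had 3 counts in all Esrrb libraries together and 1 in all Esrrb+Nanog libraries. The ratio of the Nanog-null to the Esrrb line was 77.7 (95% exact counting interval 26.2 to 380), and to the Esrrb+Nanog line 216 (38.4 to 8583). Psmb9 was at 2.78, 3.81 and 3.14 CPM in Nanog-null libraries, 1.69, 1.51 and 1.46 in Esrrb libraries, and 1.14, 1.57 and 0.945 in Esrrb+Nanog libraries. Its Nanog-null libraries were above all others by less than those of Psmb8, with log2 changes of -1.06 ± 0.21 and -1.42 ± 0.22. Psmb10 was level, with 12.8, 15.7 and 12.2 CPM, 14.2, 15.8 and 10.6 CPM, and 9.71, 12.9 and 12.7 CPM in the 3 lines, which overlapped throughout.

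Nlrc5, the transactivator of class I genes, was scarce in all lines. The Nanog-null libraries had 0.741, 0.578 and 0.167 CPM, the Esrrb libraries 0.346, 0.409 and 0.499, and the Esrrb+Nanog libraries 0.480, 0.724 and 0.455. All 3 lines overlapped, and with 36 counts in each of the first 2 lines and 44 in the last, only large differences could be seen at this depth.

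**Figure D3:**
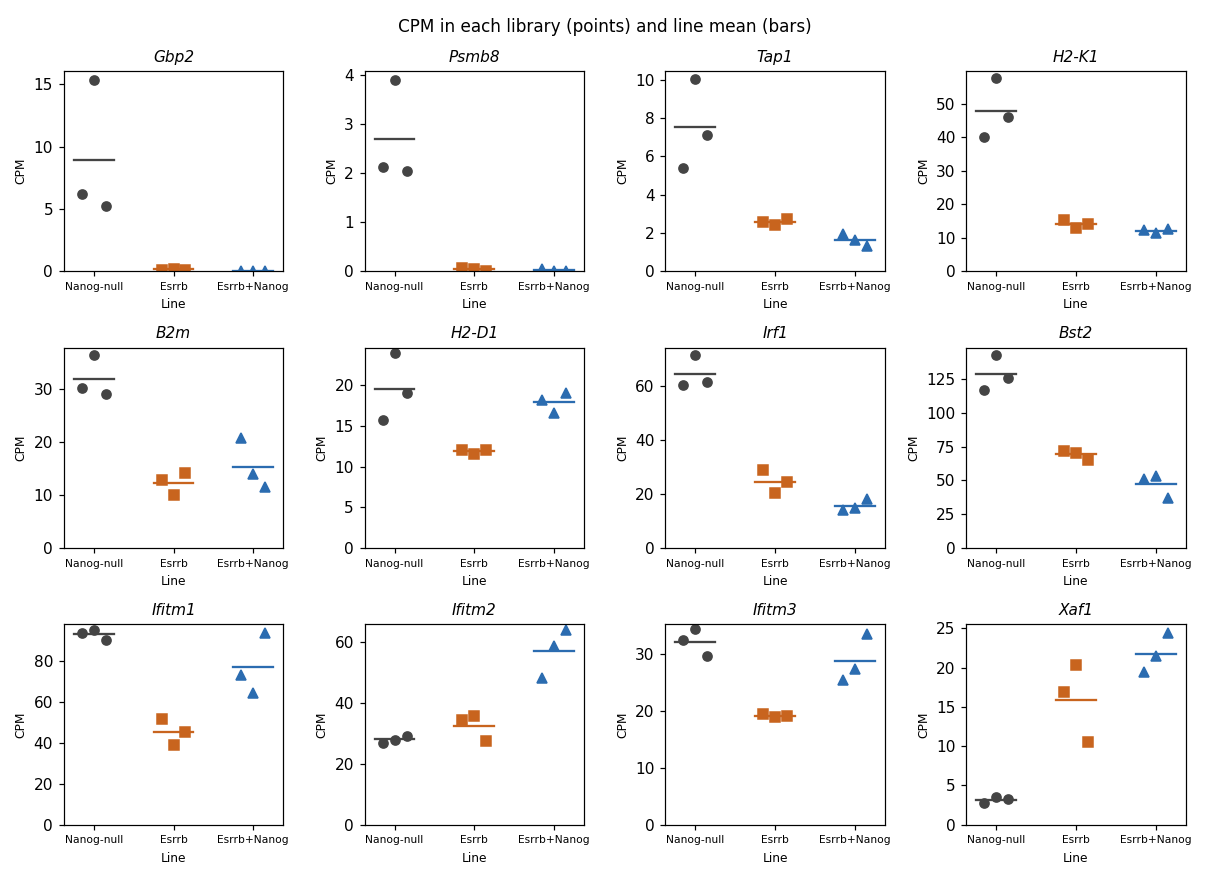
CPM (y axis, from 0) in each library (points, 3 per line) with the mean of each line (bars) for 12 of the genes, and the lines on the x axis. Gbp2, Psmb8, Tap1, H2-K1, B2m, Irf1 and Bst2 are highest in all 3 Nanog-null libraries, H2-D1, Ifitm1 and Ifitm3 are lowest in the Esrrb line, Ifitm2 is highest in the Esrrb+Nanog line, and Xaf1 is lowest in the Nanog-null line.

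Among the transcription regulators, Irf1, which binds ISRE-like sites and activates class I and GBP genes, changed and the parts of the STAT complex scarcely did. Irf1 (ENSMUSG00000018899, chromosome 11, 53770014 to 53778374) was at 60.6, 71.5 and 61.6 CPM in Nanog-null libraries, 28.9, 20.3 and 24.5 in Esrrb libraries, and 13.9, 14.8 and 18.2 in Esrrb+Nanog libraries. The 3 lines did not overlap, and each step was downward (log2 changes of -1.39 ± 0.13 and -0.65 ± 0.14). Stat2 was at 38.4, 42.2 and 44.4 CPM, then 35.3, 31.2 and 38.5, then 41.4, 35.1 and 38.5. These groups overlapped, and the log2 change of -0.25 ± 0.09 in the Esrrb line lost its call without Nanog-null replicate 2 or 3, without Esrrb replicate 1 or 2, and in a fit of the 2 lines alone. Irf9 was at 6.35, 7.24 and 6.42 CPM in Nanog-null libraries and 6.88, 7.05 and 6.38 in Esrrb libraries. In the Esrrb+Nanog libraries it was at 8.97, 7.64 and 7.74 CPM, just above the others without being called, and some of its exon bases belong to Rnf31 as well. Irf7, the master regulator of type I interferon genes, had 21, 15 and 15 counts per line and was not tested. Its libraries ran from 0.167 to 0.385, 0.0629 to 0.242 and 0.111 to 0.322 CPM, which overlapped, and its exons also lie opposite the far more abundant Phrf1.

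The guanylate-binding proteins are large GTPases that coat pathogens and their vacuoles, and the 3 listed here lie side by side on chromosome 3. Gbp2 (ENSMUSG00000028270, 142620602 to 142638008) was at 6.21, 15.3 and 5.25 CPM in Nanog-null libraries and 0.104, 0.189 and 0.115 in Esrrb libraries, and had 0 counts in all 3 Esrrb+Nanog libraries. The Nanog-null line had 689 counts and the Esrrb line 12, a ratio of 64.3 (95% exact counting interval 36.6 to 125). Against the Esrrb+Nanog line the level was at least 239-fold higher, taking 3 counts over the line as the limit that a count of 0 allows, which is 0.0373 CPM. Between the Esrrb and the Esrrb+Nanog line the bound is at least 3.71-fold, and this difference was not called. DESeq2, a fit with no low-count filter and a replicate block each called it. The lack of Gbp2 counts in the Esrrb+Nanog line was part of the selection, so nothing is read from these calls. Intervals and limits of this kind cover counting error only.

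Gbp3 and Gbp7, the neighbours of Gbp2, showed much the same order. Gbp3 was at 2.09, 3.93 and 1.84 CPM in Nanog-null libraries, had 3 counts in the Esrrb line, and had none in the Esrrb+Nanog line. That is a ratio of 75.4 (25.4 to 369) to the Esrrb line and at least 70.0-fold to the Esrrb+Nanog line. Gbp7 was at 2.46, 4.04 and 1.91 CPM in Nanog-null libraries and had 5 and 6 counts in the Esrrb and Esrrb+Nanog lines. The ratios were 48.2 (20.3 to 150) and 37.3 (16.8 to 103). For all 3 genes every Nanog-null library was above every other library. These paralogs are similar in sequence, so the division of reads between them is uncertain. Gbp4 and Gbp9, family members on chromosome 5 and not on the list, went the other way, while Gbp6 and Gbp8 there were not called higher. The spans of Gbp4 and Gbp9 overlap on the same strand, so how reads divide between them is uncertain too. Gbp4 was higher in the Esrrb line, from 3.24 ± 0.473 to 7.19 ± 1.97 CPM (SD, n = 3; log2 change 1.15 ± 0.20, edgeR adjusted p = 0.000676). Gbp9 was likewise higher, from 1.35 ± 0.103 to 3.51 ± 0.917 CPM (log2 change 1.38 ± 0.22, edgeR adjusted p = 0.000293).

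Among the 4 immunity-related GTPases, which damage vacuoles of intracellular parasites, Irgm1 and Igtp were called lower. Irgm1 (ENSMUSG00000046879, chromosome 11, 48861968 to 48871683) was at 13.8, 17.3 and 12.0 CPM in Nanog-null libraries, 5.25, 4.19 and 4.84 in Esrrb libraries, and 1.11, 2.25 and 2.59 in Esrrb+Nanog libraries. The lines did not overlap, and both steps were downward (log2 changes of -1.59 ± 0.22 and -1.26 ± 0.26). Igtp was at 0.973, 1.62 and 0.903 CPM, then 0.380, 0.346 and 0.423, then 0.332, 0.603 and 0.630. Its Nanog-null libraries were above all others, and the later lines overlapped. The log2 changes relative to Nanog-null were -1.60 ± 0.33 and -1.15 ± 0.32, and the call of the second ended without Nanog-null replicate 2. Irgm2, whose exons overlap those of Igtp on the same strand, was between 0.657 and 1.20 CPM in all 9 libraries and was not called. Iigp1 had 1 count in all.

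Of the antiviral effectors, Bst2 was the most abundant. Bst2 (ENSMUSG00000046718, chromosome 8, 71534255 to 71537456) was at 117, 143 and 126 CPM in Nanog-null libraries, 72.0, 70.1 and 65.3 in Esrrb libraries, and 50.6, 53.0 and 37.1 in Esrrb+Nanog libraries. The 3 lines did not overlap, with log2 changes of -0.89 ± 0.12 and -0.56 ± 0.12. Isg15, a ubiquitin-like protein that is joined to others after interferon, had 6, 39 and 11 counts in Nanog-null libraries and 0 in the other 6 libraries. That is at least 20.9-fold higher than in the Esrrb line and at least 19.4-fold higher than in the Esrrb+Nanog line. With replicate 2 of the Nanog-null line left out, the bounds were 9.55 and 8.86. Isg15 did not pass the low-count filter and was not tested.

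The Ifit genes, whose proteins bind foreign RNA, were low, and Ifit1, Ifit3, Ifih1, Rtp4 and Usp18 had too few counts to be tested. Ifit2 was level at 1.03 to 1.46 CPM over all 9 libraries, and was not called in any comparison. Ifit1 had 3, 15 and 0 counts in the Nanog-null, Esrrb and Esrrb+Nanog lines, so it was highest in the Esrrb line, and Ifit3 had 1 count in all. Ifih1, a sensor of double-stranded RNA also called MDA5, had 45, 7 and 6 counts per line. Its ratio of the Nanog-null to the Esrrb line was 7.20 (95% exact counting interval 3.22 to 18.9), and 4.33 (1.73 to 12.3) without Nanog-null replicate 2. Rtp4, an interferon-induced chaperone of receptors, had 21, 4 and 2 counts, a ratio of 5.88 (1.98 to 23.6) to the Esrrb line, and 3.79 (1.06 to 16.9) without that replicate. Usp18, the protease that removes ISG15, had 3, 1 and 0 counts.

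The IFITM proteins sit in membranes and block virus entry, and their genes lie within 1 stretch of chromosome 7. Ifitm1 (ENSMUSG00000025491, 140967221 to 140969825) was at 93.8, 94.9 and 90.1 CPM in Nanog-null libraries, 51.5, 39.0 and 45.1 in Esrrb libraries, and 73.3, 64.1 and 93.8 in Esrrb+Nanog libraries. The Esrrb libraries were lowest, and the outer lines overlapped (log2 changes of -1.04 ± 0.13 and then 0.77 ± 0.13). Ifitm3 (ENSMUSG00000025492, 141009586 to 141010770) was at 32.5, 34.4 and 29.6 CPM, then 19.4, 19.0 and 19.1, then 25.4, 27.4 and 33.5. It followed the order of Ifitm1, with log2 changes of -0.75 ± 0.10 and 0.59 ± 0.10. Ifitm2 (ENSMUSG00000060591, 140954837 to 140955987) differed from both. It was at 27.0, 27.9 and 29.3 CPM in Nanog-null libraries, 34.5, 35.9 and 27.4 in Esrrb libraries, and 48.3, 58.9 and 64.1 in Esrrb+Nanog libraries. The first 2 lines overlapped and the last was above both, with a log2 change of 0.81 ± 0.12 relative to Esrrb and 1.02 ± 0.12 relative to Nanog-null.

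Xaf1 (ENSMUSG00000040483, chromosome 11, 72301629 to 72313733) was the gene of the 25 called higher in the Esrrb line. It was at 2.73, 3.58 and 3.28 CPM in Nanog-null libraries, 17.0, 20.3 and 10.5 in Esrrb libraries, and 19.5, 21.4 and 24.4 in Esrrb+Nanog libraries. All 6 libraries with added Esrrb were above the Nanog-null libraries, and the Esrrb and Esrrb+Nanog lines overlapped. The log2 change relative to Nanog-null was 2.31 ± 0.22 in the Esrrb line and 2.76 ± 0.22 in the Esrrb+Nanog line. Without Esrrb replicate 3 a further gene, Ifitm2, was called higher, which made 2.

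Over all 34 genes, tested or not, 21 had every Esrrb library below every Nanog-null library, 2 were above (Xaf1 and Ifit1) and 11 overlapped. Among all tested genes 29.0% were below and 29.4% above without overlap. Between the Esrrb+Nanog and Esrrb lines 9 were below, 6 above and 19 overlapped, against 16.7% below and 14.9% above among all tested genes. Between the Esrrb+Nanog and Nanog-null lines 17 were below, 3 above and 14 overlapped, against 30.7% and 31.2%.

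Nanog-null replicate 2 was the highest Nanog-null library for many of these genes. Of the 25 tested, 23 (92%) were higher in it than the mean of its partners, against 49.3% of all tested genes, with a median log2 ratio of 0.32, and with an offset of 0.1 CPM Gbp2 alone of the 25 was more than 2-fold higher. Among the Nanog-null libraries, replicate 2 also held most of the fibroblast marker signal. The 8 fibroblast markers summed to 13.7, 83.4 and 25.5 CPM in Nanog-null libraries, 7.38 to 13.8 CPM in Esrrb libraries and 7.57 to 14.1 CPM in Esrrb+Nanog libraries, and 6 of 8 were over 2-fold higher in replicate 2. None of the 8 was at 0 in every library. Acta2 made up 54.3 CPM of the replicate 2 sum and was at 7.69 and 16.1 CPM in the other Nanog-null libraries and at most 0.105 CPM elsewhere. Thy1 went the other way, with means of 2.27 CPM in Nanog-null, 8.96 in Esrrb and 9.24 in Esrrb+Nanog libraries. It made up most of the Esrrb and Esrrb+Nanog sums, so the remaining fibroblast markers were lower there than those sums show. The 6 primitive endoderm markers summed to 11.4, 35.2 and 19.1 CPM in Nanog-null libraries, 25.7 to 61.1 in Esrrb libraries and 11.8 to 19.7 in Esrrb+Nanog libraries, with 5 of 6 over 2-fold higher in replicate 2. In the Esrrb line edgeR called Gata6 and Pdgfra higher (log2 changes of 2.76 ± 0.50 and 2.16 ± 0.52) and Dab2 lower (-1.33 ± 0.31). Gata4 and Sox17 were not called, and Foxa2 was not tested. Pdgfra, the marker sorted against, had means of 2.29, 10.4 and 2.90 CPM in the Nanog-null, Esrrb and Esrrb+Nanog lines. The 4 endothelial markers ran from 32.1 to 39.4, 30.0 to 32.3 and 20.6 to 24.9 CPM per line, with 2 of 4 over 2-fold higher in replicate 2. Tek had means of 35.2, 17.2 and 10.4 CPM per line, and Kdr 1.45, 13.2 and 12.1. The 8 leukocyte markers summed to 7.28 to 8.73, 6.67 to 8.47 and 8.05 to 10.2 CPM per line, mostly Cd68 and Cd3e. Adgre1 was at 0 in all 9 libraries, Ptprc was at 0 in Nanog-null libraries, and 1 of the 5 with counts in the other Nanog-null libraries was over 2-fold higher in replicate 2.

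With that library left out, 17 of the 26 then tested were called lower and 1 higher in the Esrrb line, all 17 among the 18 called before. In the Esrrb+Nanog line relative to Nanog-null the counts were 13 and 2. The median log2 changes were then -0.89 and -0.76, in place of -1.04 and -1.06. The ratio of Gbp2 to the Esrrb line became 40.9 (95% exact counting interval 23.04 to 80.01), a change of more than 1.5 times, and its bound against the Esrrb+Nanog line 152. Psmb8 gave 60.1 (20.02 to 296), Gbp3 56.2 (18.7 to 277) and Gbp7 37.1 (15.4 to 116) relative to Esrrb. The part of other cell types in the remaining differences was not tested.

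The rest of the pathway was read from 115 other genes, listed by role from general knowledge, of which 83 were tested. Their adjusted p-values are from edgeR over all 16198 tested genes. In the Esrrb line 26 of the 83 were lower (31.3%, against 24.2% of all tested genes) and 18 higher (21.7%, against 24.2%), with a median log2 change of -0.05. In the Esrrb+Nanog line relative to Nanog-null 30 were lower (36.1%, against 27.2%) and 24 higher (28.9%, against 27.2%). Between the Esrrb and Esrrb+Nanog lines 6 were lower (7.23%, against 7.75%) and 4 higher (4.82%, against 5.43%). These last counts rest on few libraries. Without Esrrb replicate 1 the count of higher genes was 1, without Esrrb+Nanog replicate 2 or 3 it was 2, and without Esrrb+Nanog replicate 2 the count of lower genes was 3. With library totals alone 10 genes were higher.

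None of the 10 interferon genes listed reached the filter, and 8 of them had no counts at all, while Ifng and Ifnk had at most 2 counts in any library. Of the 11 receptor and kinase genes, 3 were higher (27.3%) and 2 lower (18.2%) in the Esrrb line, against 24.2% each way of all tested genes. The type I receptor gene Ifnar1 was level at 50.2 ± 1.01, 49.4 ± 0.842 and 51.5 ± 3.29 CPM (SD, n = 3 per line; edgeR adjusted p of 0.815 in the Esrrb line). The interferon gamma receptor gene Ifngr1 fell from 7.05 ± 0.963 to 3.58 ± 0.180 CPM (log2 change -0.98 ± 0.16, edgeR adjusted p = 0.000364). The kinase gene Jak1 rose from 67.7 ± 5.20 to 119 ± 3.34 CPM (log2 change 0.81 ± 0.07, edgeR adjusted p = 4.83e-06). Stat3, the effector of leukaemia inhibitory factor, rose from 59.6 ± 2.11 to 137 ± 31.9 CPM (log2 change 1.20 ± 0.12, edgeR adjusted p = 1.44e-05).

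The 6 negative regulators held 1 gene that rose and 1 that fell in the Esrrb line (16.7% each), against 24.2% each way of all tested genes. Socs3, which blocks JAK signalling and is itself a STAT3 target, rose from 32.02 ± 3.59 to 162 ± 108 CPM (SD, n = 3; log2 change 2.34 ± 0.34, edgeR adjusted p = 0.000184). Its Esrrb libraries were uneven, with replicate 2 at 287 CPM and the others at 106 and 93.5, and over the alternatives run the log2 change was 1.64 to 2.62, higher in each. Ptpn6, a phosphatase, fell from 30.1 ± 3.03 to 21.5 ± 2.23 CPM (log2 change -0.49 ± 0.10, edgeR adjusted p = 0.00178). Socs1, the main brake on interferon gamma signalling, was at 4.14 ± 0.847, 3.48 ± 0.920 and 3.95 ± 0.775 CPM in the 3 lines and was not called. Pias1, an inhibitor of STAT signalling, was at 51.3 ± 1.69, 45.1 ± 4.70 and 45.1 ± 2.61 CPM and was not called either.

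Sensors and adaptors gave 5 genes higher (33.3%) and 2 lower (13.3%) of 15 in the Esrrb line, against 24.2% each way of all tested genes. Ddx58, which encodes the RNA sensor RIG-I, rose from 36.0 ± 0.0906 to 110 ± 6.80 CPM (SD, n = 3; log2 change 1.61 ± 0.06, edgeR adjusted p = 1.18e-08) and was at 115 ± 5.28 CPM in the Esrrb+Nanog line. Trim25, the ubiquitin ligase that activates RIG-I, rose from 216 ± 10.9 to 391 ± 26.1 CPM (log2 change 0.86 ± 0.08, edgeR adjusted p = 5.81e-06). Zbp1, a sensor of Z-form nucleic acid, fell from 1.51 ± 0.158 to 0.340 ± 0.201 CPM (log2 change -2.12 ± 0.41, edgeR adjusted p = 0.00114). Among the other IRF-related genes 2 of 7 were higher and 2 lower in that line (28.6% each), against the same 24.2%. Irf2bpl rose from 117 ± 9.92 to 281 ± 61.2 CPM (edgeR adjusted p = 1.73e-05), and Irf2bp2 fell from 88.9 ± 5.85 to 65.2 ± 5.64 CPM (edgeR adjusted p = 0.000902).

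The other interferon-induced genes numbered 24 after the filter. In the Esrrb line 11 were lower (45.8%) and 3 higher (12.5%), against 24.2% each way of all tested genes. In the Esrrb+Nanog line relative to Nanog-null 16 were lower (66.7%) and 4 higher (16.7%), against 27.2% each way. Parp9, an ADP-ribosyltransferase, fell from 24.998 ± 1.82 to 9.87 ± 0.327 CPM (SD, n = 3; log2 change -1.34 ± 0.09, edgeR adjusted p = 5.89e-07). Its binding partner Dtx3l, a ubiquitin ligase, fell from 33.3 ± 0.269 to 14.9 ± 1.31 CPM (log2 change -1.16 ± 0.09, edgeR adjusted p = 1.71e-06). Oasl2, an antiviral protein related to oligoadenylate synthetases, fell from 3.78 ± 1.17 to 0.341 ± 0.146 CPM (log2 change -3.44 ± 0.34, edgeR adjusted p = 1.07e-05). The 3 that were higher were Gbp4, Gbp9 and Samd9l, an antiviral restriction factor, which went from 1.80 ± 0.257 to 4.57 ± 0.492 CPM (log2 change 1.34 ± 0.29, edgeR adjusted p = 0.00248). The other antigen presentation genes gave 8 lower (40%) and 4 higher (20%) of 20 in the Esrrb line, against 24.2% each way of all tested genes. Those higher were the class II gene H2-Eb1, the chaperone genes Calr and Pdia3, and the standard proteasome gene Psmb6. H2-Eb1 went from 0.522 ± 0.260 to 3.31 ± 0.566 CPM (log2 change 2.62 ± 0.31, edgeR adjusted p = 4.13e-05). The higher genes named here were chosen after their values were seen. The class I genes H2-Q4 and H2-Q7 fell from 21.4 ± 3.16 to 4.63 ± 0.459 CPM and from 4.91 ± 1.16 to 0.839 ± 0.263 CPM (edgeR adjusted p of 2.2e-06 and 9.19e-06). H2-T22, another class I gene, fell at both steps, from 4.04 ± 0.473 to 1.80 ± 0.0894 CPM and on to 0.714 ± 0.140 CPM (edgeR adjusted p of 0.00026 and 0.00223).

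**Figure D4:**
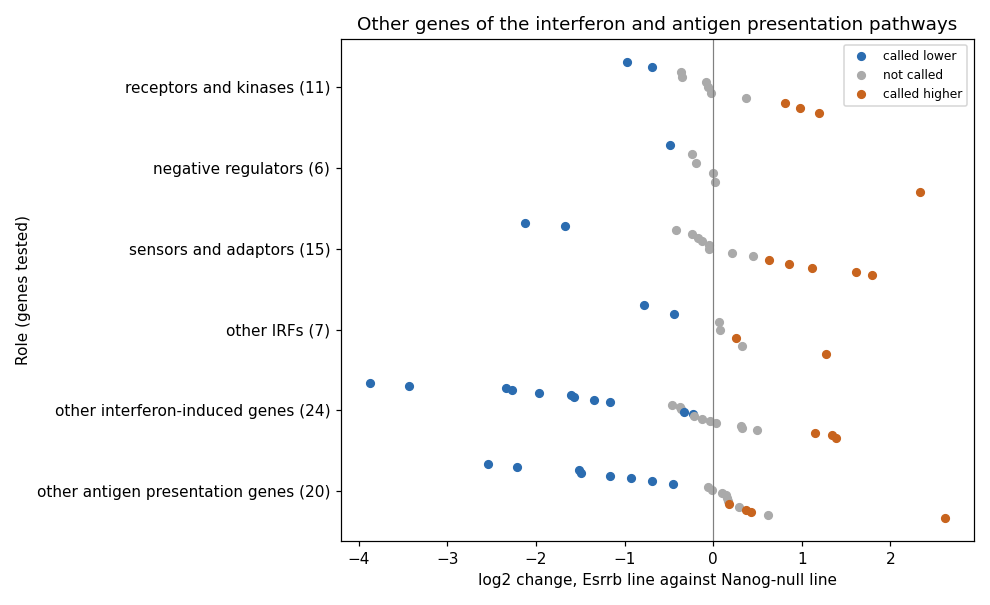
Log2 change in the Esrrb line relative to Nanog-null (x axis) of the 83 tested other pathway genes, by role (y axis, with the number tested); each point is a gene, coloured by whether edgeR called it higher, lower or not. Among other interferon-induced genes 11 points of 24 are called lower, and among sensors and adaptors 5 of 15 are called higher. The share of all tested genes was 24.2% each way.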

How the data were processed

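RNA from 9 samples was sequenced after ribosomal RNA depletion, per the labels' protocols. Per the submitters' processing notes, the tools were STAR 2.5.3a with bcl2fastq 2.19.1 and the build mm10, without their roles. The authors' deposited values are whole-number counts per Ensembl gene, per the file headers and the values. The sources used here do not give counting settings or strand, so antisense reads cannot be told apart. Another 6 columns matched no sample and were not used.

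Symbols, positions and union exon lengths are from GENCODE M21 (mm10). Genes were kept by the default rule of edgeR 4.0.16 (R 4.3.3), which left 16198. A quasi-likelihood model with line as its term was fitted to all 9 libraries with trimmed mean of M values factors, and p-values were adjusted by Benjamini-Hochberg over all tested genes at 0.05. CPM are counts scaled to the total of tested genes times these factors, with no pseudocount. SE is the absolute log2 change divided by the root of its F statistic. With no counts, 3 counts over a line gave the bound, and ratios of 20 counts or fewer have 95% exact intervals. The ratio of replicate 2 used an offset of 0.1 CPM.

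The 34 genes, the lists and the rule for named genes were chosen with earlier results of these data known. The rule gave per-library values to 21 members and to any other called with at least a 2-fold change, and named from each role of the other list the 3 genes with the smallest adjusted p in any comparison, plus Jak1, Ifnar1, Ifngr1 and Socs1 among others. A few genes that the rule named are not reported here. Alternatives were median-of-ratios factors, library totals, DESeq2 1.42.0, no filter, at least 5 CPM in 3 libraries, the 2 lines alone, a replicate block, and each library left out. Members' ratios without Nanog-null replicate 2 were added after seeing the data. The fits were tested on simulated data, where 53.7% to 62.1% of 1.5-fold and 93.8% to 100% of 4-fold changes were recovered. Of the genes called there, 3.18% to 8.7% were false, the most for Esrrb+Nanog against Esrrb. Far fewer genes changed in the simulation than were called in the data, so these shares need not hold here.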

Additional observations from a re-analysis of the deposited data

How the results depend on the processing

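No direction of a named member reversed where it was called, under any of the settings run. Of 872 refitted values of single members, 854 kept their side of the threshold, 7 lost a call and 11 gained a call. Counts that moved by over 1.5 times did so as follows. With at least 5 CPM in 3 libraries, which tests fewer genes, the other pathway genes gave 11 higher and 17 lower in the Esrrb line, 3 lower from the Esrrb to the Esrrb+Nanog line, and 15 higher and 17 lower in the Esrrb+Nanog against the Nanog-null line, where members gave 8 lower and a median log2 change of -0.59. With no filter, from the Esrrb to the Esrrb+Nanog line, 6 members were lower and 7 other pathway genes higher, and the members' median against the Nanog-null line was -1.29. Library totals alone gave 10 other pathway genes higher at that step. In a fit of the 2 lines alone the members' median at that step was 0.14, over 21 genes, in place of -0.06. The cause was not tested where fewer or more genes do not show it.

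Leaving out each library gave 1 to 2 members higher and 17 to 20 lower in the Esrrb line. At the step to the Esrrb+Nanog line it gave 1 to 6 other pathway genes higher and 3 to 8 lower (1 without Esrrb replicate 1, 2 without Esrrb+Nanog replicate 2 or 3, and 3 lower without Esrrb+Nanog replicate 2). The members' median against the Nanog-null line ran from -1.19 to -0.76, the latter without Nanog-null replicate 2. Same-numbered libraries did not deviate together throughout (correlations from -0.02 to 0.28), and not every library correlated best with its own number. Replicate 2 did so for each pair of lines (0.11, 0.07 and 0.28). Whether the numbers pair the libraries was therefore not settled. With the replicate block 18 members were lower in the Esrrb line, and 4 in place of 3 at the next step, where Gbp2 was added, and Ifitm1 was called lower in Esrrb+Nanog relative to Nanog-null libraries.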

Other observations

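Position was compared after the values were seen. The 8 members on chromosome 17, from Tapbp to H2-T23, lie between 33915899 and 36032855 (mm10). Within that stretch 92 other coding genes were tested, and 19 of them were called lower and 30 higher by edgeR in Esrrb relative to Nanog-null cells, against 24.2% each way of all tested genes. Around the Ifitm genes and Irf7 on chromosome 7 (140954837 to 141266481) 11 other coding genes were tested. Of these, 4 were called higher by edgeR in the Esrrb+Nanog relative to the Esrrb line, the step at which all 3 Ifitm genes were called higher, against 5.43% of all tested genes, and 3 were called lower in Esrrb relative to Nanog-null cells, against 24.2%. These counts share libraries with those of the members.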
